A study of Mus musculus with 4 samples.

Results

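The p90 ribosomal S6 kinases (RSK), the closely related mitogen- and stress-activated kinases (MSK) and ERK1, the RSK activator encoded by Mapk3, were examined in lung tumours with and without CD109. The group comprised 7 genes, Rps6ka1 to Rps6ka6 and Mapk3, of 23787 genes named on the arrays. They were read on 12 of the 56605 probes. Each probe was taken by the RefSeq accession the array file gives for it, and all 12 passed the filter on dim probes, under which the 2 arrays of 1 genotype or of the other had to read well above background. The group was proposed because Rps6ka6 had shown a large difference between the genotypes, in order to see whether its paralogs shared that difference. The values of this comparison are therefore described for the members and no p is given for them.

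RSK enzymes carry a pair of kinase domains in 1 chain. ERK, the last kinase of the RAS-RAF-MEK-ERK cascade, docks on RSK and phosphorylates the carboxy-terminal kinase domain, after which the kinase PDK1 activates the amino-terminal domain that phosphorylates substrates. Rps6ka1, Rps6ka3 and Rps6ka2 encode RSK1, RSK2 and RSK3, and Rps6ka6 encodes RSK4, the divergent member, for which constitutive activity and a growth-restraining as well as a growth-promoting role have been described. Rps6ka5 and Rps6ka4 encode the nuclear kinases MSK1 and MSK2, which answer to p38 as well as ERK and phosphorylate CREB and histone H3. Lung adenocarcinoma is often driven through the RAS pathway, and these kinases act at its output.

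The tumours came from KP mice of strain C57BL/6J, a Cre-dependent model of lung adenocarcinoma whose alleles the labels do not spell out. The mice of both genotypes, controls included, had received adenovirus carrying Cre into the trachea 88 to 92 days before RNA was taken. The 2 CD109+/+ samples, replicates 1 and 2, were female, and of the 2 CD109-/- samples replicate 1 was male and replicate 2 female. Adenoviral Cre is not limited to 1 cell type by the labels, no sorting of the tumour cells is named, and no age of the mice was used here. The labels do not say whether replicates were separate animals, so errors cover only the spread between these samples, which may be technical. In such bulk samples fewer cells of a type and less RNA per cell cannot be told apart.

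Each sample was hybridised in 1 colour to its own Agilent array. Signal at the 75th percentile was 557 to 688 and 64.3% to 67.0% of spots were well above background. Signals are given as log2 of the processed signal relative to this percentile. A difference always means CD109-/- minus CD109+/+, and its error is limma's standard error (SE, n = 2 per genotype). Levels of different probes are not comparable with each other. Cd109 had log2 signals of -3.70 and -4.66 on the CD109+/+ arrays and was not well above background on either CD109-/- array, at least 2.92-fold lower. Xist and the Y-linked genes followed the labelled sex on all 4 arrays, apart from 1 Kdm5d probe that was dim on every array. The lung label was met by the alveolar type 2 markers, of which 10 of 10 were measured, with the surfactant gene Sftpc at log2 8.79 to 9.11.

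Rps6ka6 was lower on both CD109-/- arrays than on both CD109+/+ arrays with each of its 2 probes. The gene lies on the X chromosome, and RefSeq gives it 2 start sites in assembly GRCm38.p6. The 250 bases before each start are shown because Rps6ka6 is the member that sets the group apart, together with those before the start of Rps6ka5, the member that differed most in the other direction. Capitals mark matches on either strand to the TATA box letters TATAAA, the CCAAT box, the GC box GGGCGG, the AP-1 letters TGAGTCA, TGACGTCA (cAMP response element), GTCTAGAC (SMAD palindrome) or the CArG box.
Rps6ka6 upstream start, chrX:111537960-111538209, minus strand: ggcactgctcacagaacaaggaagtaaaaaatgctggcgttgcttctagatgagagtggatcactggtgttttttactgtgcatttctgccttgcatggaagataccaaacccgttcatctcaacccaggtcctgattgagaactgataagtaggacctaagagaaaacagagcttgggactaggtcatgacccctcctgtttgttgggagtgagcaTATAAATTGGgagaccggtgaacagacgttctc
Rps6ka6 downstream start, chrX:111463498-111463747, minus strand: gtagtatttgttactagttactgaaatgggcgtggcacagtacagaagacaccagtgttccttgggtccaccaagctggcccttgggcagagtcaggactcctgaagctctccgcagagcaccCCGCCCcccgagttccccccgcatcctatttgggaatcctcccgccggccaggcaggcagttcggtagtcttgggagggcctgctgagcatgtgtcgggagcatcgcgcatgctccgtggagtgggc
Rps6ka5 start, chr12:100725121-100725370, minus strand: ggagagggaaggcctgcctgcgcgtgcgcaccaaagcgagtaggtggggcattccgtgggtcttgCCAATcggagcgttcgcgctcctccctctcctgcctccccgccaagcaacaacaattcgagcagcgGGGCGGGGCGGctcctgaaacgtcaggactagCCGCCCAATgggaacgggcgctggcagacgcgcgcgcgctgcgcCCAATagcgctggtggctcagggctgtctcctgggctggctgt
The upstream Rps6ka6 start held TATAAA 33 bases before the start, where its last base overlapped the reverse form of CCAAT, and no GC box. TATAAA occurred in 12.4%, CCAAT in 33.9% and GGGCGG in 32.7% of the 32841 promoters of the same length. The downstream Rps6ka6 start held 1 GC box, and the Rps6ka5 start 3 GC boxes and 3 CCAAT boxes, some of them overlapping. GC content was 46.4% and 60.8% before the Rps6ka6 starts and 68.0% before the Rps6ka5 start, with a median of 52.4% over all promoters. The AP-1 letters (4.46% of all promoters), the cAMP response element (1.55%), the SMAD palindrome (0.167%) and the CArG box (1.47%) were not in these 3 windows. Of the other members, Rps6ka1, Rps6ka2 and Rps6ka4 had entries, and AP-1 letters occurred once, before Rps6ka4. A letter match is a description and not a binding site, and the arrays do not tell which start was used.

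The brighter Rps6ka6 probe (A_55_P2497229) had processed signals of 165 and 207 on the CD109+/+ arrays against 19.7 and 15.5 on the CD109-/- arrays. On the log2 scale these were -1.75 and -1.69 against -5.10 and -5.48, and the last value was not well above background. The genotypes did not overlap, and the means were -1.72 ± 0.05 and -5.29 ± 0.26 (SD, n = 2 each). The difference was -3.57 ± 0.25, an 11.8-fold lower signal, measured against a CD109-/- group in which 1 of the 2 arrays was well above background. The dimmer probe (A_55_P2020916) read the same RefSeq transcript. It had log2 signals of -5.07 and -4.74 on the CD109+/+ arrays and -7.98 and -7.86 on the CD109-/- arrays, where it was not well above background on either. Its measured difference was -3.01 ± 0.25, but only a bound can be given for the fold, and the dimmer Rps6ka6 probe was at least 1.77-fold lower in CD109-/- tumours. This bound sets the CD109+/+ mean against the lowest signal among probes well above background on each CD109-/- array.

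**Figure D1:**
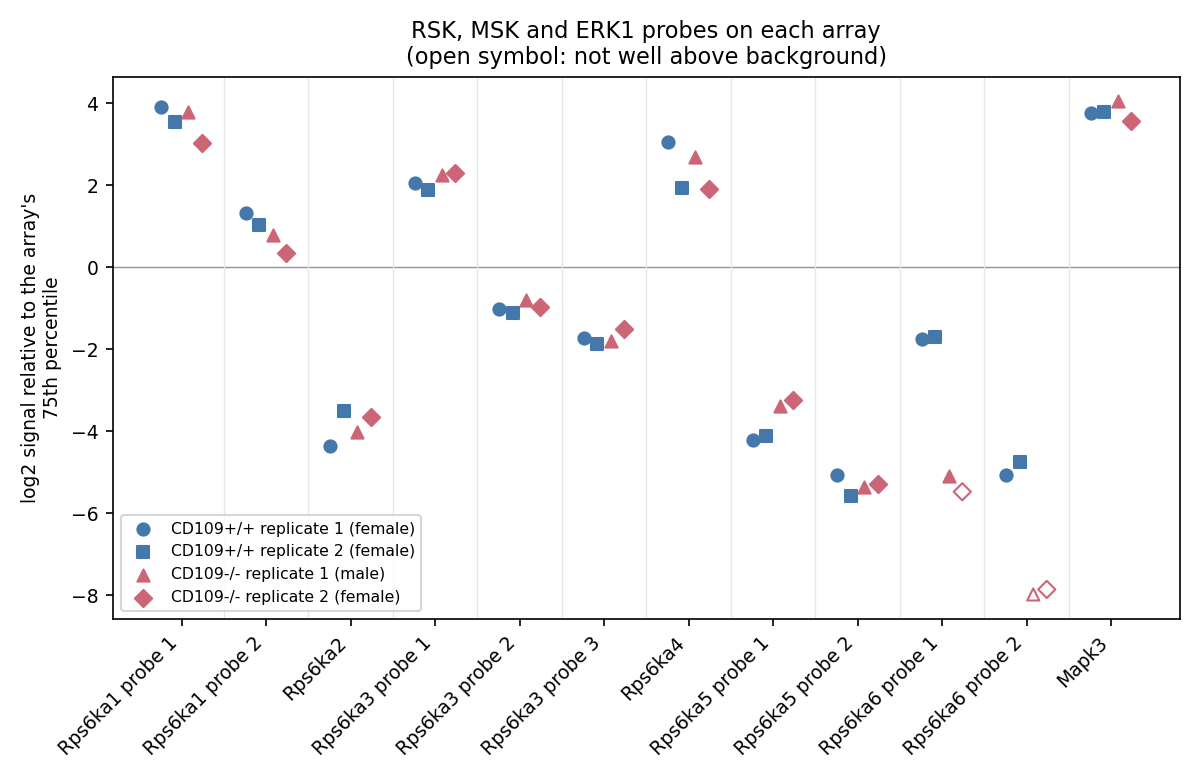
Log2 signal relative to each array's 75th percentile (vertical axis) for the 12 probes of the RSK, MSK and ERK1 genes (horizontal axis), 1 point per array, with open symbols where a probe was not well above background. Within a probe the arrays can be compared, and both Rps6ka6 probes show the CD109-/- arrays far below the CD109+/+ arrays, at -5.10 and -5.48 against -1.75 and -1.69 for probe 1.

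Because Rps6ka6 is X-linked and 1 CD109-/- sample was male, its values were read by sex. Against the mean of the female CD109+/+ arrays, the brighter probe differed by -3.38 on the male CD109-/- array, where it was well above background. In this value sex and genotype differ together and cannot be told apart. On the female CD109-/- array neither Rps6ka6 probe was well above background, so a comparison within females rests on dim readings of 1 array. Its measured value of -3.75 with the brighter probe is therefore not taken as a size. Rps6ka3, the other X-linked member, differed between the male and the female CD109-/- array by -0.04, 0.17 and -0.28 with its 3 probes. Cd109 itself lies on chromosome 9, and none of the members lies there.

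The genes beside Rps6ka6 on the X chromosome were read for a shared shift. Of 8 listed neighbours, each within 9 protein-coding genes of it in the RefSeq order, 3 were tested. Apool, a component of the mitochondrial inner membrane organising complex, stood at 0.18 ± 0.22 and Pof1b, an actin-binding epithelial protein, at 0.17 ± 0.23. Chm, which encodes the Rab escort protein REP1, stood at 0.31 ± 0.21 (further probe 0.33). These 3 listed neighbours had slightly higher values in CD109-/- tumours, each within 2 standard errors of 0, and nothing is read from their sign. At limma's adjusted threshold 0 of 3 passed, as did 0 of all 16443 genes. At an unadjusted p under 0.05 there were 0 of 3, beside 7.41% of all genes. Outside the list, and added after their values were seen, Gm6377, Sh3bgrl and Hmgn5 lie 4, 5 and 6 places to the other side. Gm6377 stood at 0.79 ± 0.33, Sh3bgrl at 0.53 ± 0.26 and Hmgn5 at 0.074 ± 0.22, and nothing is read from their sign because of that choice. The genes directly adjacent, Cylc1 and Hdx, as well as Pou3f4, Satl1 and Zfp711, did not pass the filter on dim probes. Gm34521, Tex16 and 4933403O08Rik, which also lie closer than Apool and Gm6377, were not tested either. No gene closer than 4 places was therefore read, and a shift limited to the nearest genes was not tested.

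Among the other RSK genes none came near the Rps6ka6 value. Rps6ka1 (RSK1, chromosome 4) had log2 signals of 3.90 and 3.53 on the CD109+/+ arrays against 3.77 and 3.02 on the CD109-/- arrays with its brighter probe. These values overlapped, and the difference was -0.32 ± 0.35. With its second probe the signals were 1.31 and 1.02 against 0.78 and 0.34, which did not overlap, and the difference was -0.60 ± 0.28. Rps6ka1 was therefore lower with both probes by less than 1 on the log2 scale, and the first probe gave 0.06 without CD109-/- replicate 2.

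Rps6ka3 (RSK2), which is mutated in Coffin-Lowry syndrome, had log2 signals of 2.06 and 1.88 on the CD109+/+ arrays and 2.26 and 2.29 on the CD109-/- arrays with its brightest probe. The genotypes did not overlap there, with a difference of 0.30 ± 0.23. Its other 2 probes gave 0.19 ± 0.23 without overlap and 0.15 ± 0.24 with overlap. All 3 Rps6ka3 probes were on the higher side in CD109-/- tumours, the opposite sign to Rps6ka6, and each lay within 2 standard errors of 0.

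Rps6ka2 (RSK3, chromosome 17) was read by 1 probe, at -4.35 and -3.50 on the CD109+/+ arrays and -4.03 and -3.65 on the CD109-/- arrays. The CD109-/- values lay between the CD109+/+ values, and the difference of 0.086 ± 0.37 changed sign with normexp background correction (-0.057). It also did so when CD109+/+ replicate 1 (-0.34) or CD109-/- replicate 2 (-0.10) was left out.

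The MSK genes differed in how far their readings separated the genotypes. Rps6ka5 (MSK1, chromosome 12) had log2 signals of -4.21 and -4.12 on the CD109+/+ arrays and -3.38 and -3.23 on the CD109-/- arrays with its brighter probe. The genotypes did not overlap, and the difference of 0.86 ± 0.23 was a 1.81-fold higher signal in CD109-/- tumours. Its second probe, assigned to another RefSeq transcript of the gene, gave -5.07 and -5.59 against -5.36 and -5.29, a difference of 0.0061 ± 0.28. The Rps6ka5 probes thus disagreed, and the mean of both was 0.43. With normexp the brighter probe gave 0.32. Rps6ka4 (MSK2, chromosome 19) had 3.05 and 1.94 against 2.69 and 1.91, so that both replicates 1 were above both replicates 2 whatever the genotype. The Rps6ka4 difference was -0.19 ± 0.48, and it turned to 0.36 on leaving out CD109+/+ replicate 1 and to 0.20 on leaving out CD109-/- replicate 2.

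Mapk3 (ERK1, chromosome 7), the activator, was at 3.76 and 3.79 on the CD109+/+ arrays and 4.04 and 3.56 on the CD109-/- arrays. The CD109-/- values lay on either side of the CD109+/+ values, with a difference of 0.024 ± 0.27. This Mapk3 difference turned to -0.012 with quantile normalization and to -0.22 between females alone.

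**Figure D2:**
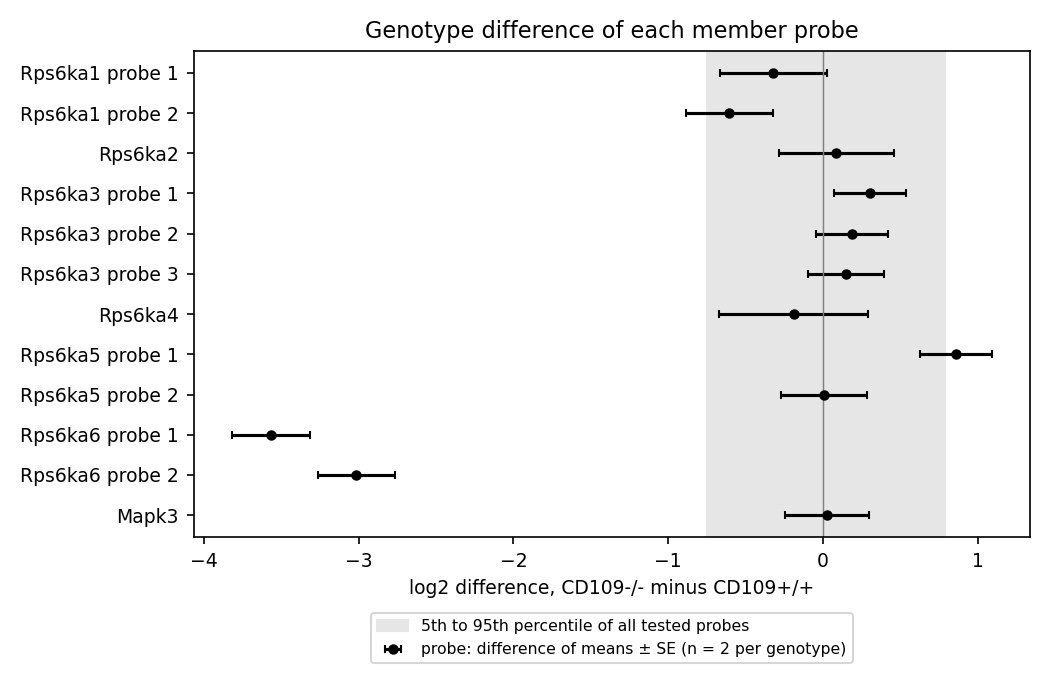
Log2 difference, CD109-/- minus CD109+/+ (horizontal axis), with limma's standard error for each of the 12 probes (vertical axis), n = 2 arrays per genotype. The grey band spans the 5th to the 95th percentile of all tested probes, -0.75 to 0.79, and the 2 Rps6ka6 probes at -3.57 and -3.01 lie far to its left while Rps6ka5 probe 1 at 0.86 lies just to its right.

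By count, the genotypes did not overlap on 6 of the 12 member probes, 3 lower and 3 higher in CD109-/- tumours, and overlapped on the other 6. Over all 35769 tested probes 37.7% did not overlap, 21.2% lower and 16.5% higher, and nothing is read from the members' count against these shares because the group was chosen on this comparison. Of the 10 probes for genes other than Rps6ka6, 1 was without overlap lower and 3 without overlap higher, with differences from -0.60 to 0.86. The median difference of the 6 other members was 0.055, beside 0.0029 over all 16443 tested genes, of which 93.5% differed by less than 1 on the log2 scale. No paralog showed a decrease of the size read with either Rps6ka6 probe on the processed signal, a contrast that was described and not tested. Smaller decreases were read for Rps6ka1 (-0.32 with overlap and -0.60 without) and Rps6ka4 (-0.19 with overlap).

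Normexp background correction and the mean of its probes (-3.29) changed the Rps6ka6 value more than leaving out any single array did. Quantile normalization (-3.53), scaling to the median (-3.53) and the authors' processed values (-3.59) changed the value less than leaving out either CD109-/- array. Normexp background correction was run on the median spot signal with an offset of 50 in place of the processed signal. It gave -1.61 for the brighter and -0.58 for the dimmer probe. The -0.58 lies within the range of the other members' probes as reported, -0.60 to 0.86. The offset exceeds every processed signal of the dimmer probe (2.68 to 25) and the brighter probe's CD109-/- signals (19.7 and 15.5). It therefore shrinks these log2 differences by arithmetic. A stricter filter, under which every array had to read well above background, removed Rps6ka6 altogether. Leaving out each array in turn gave -3.75 to -3.38, and the -3.75 rests on the CD109-/- reading that was not well above background.

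**Figure D3:**
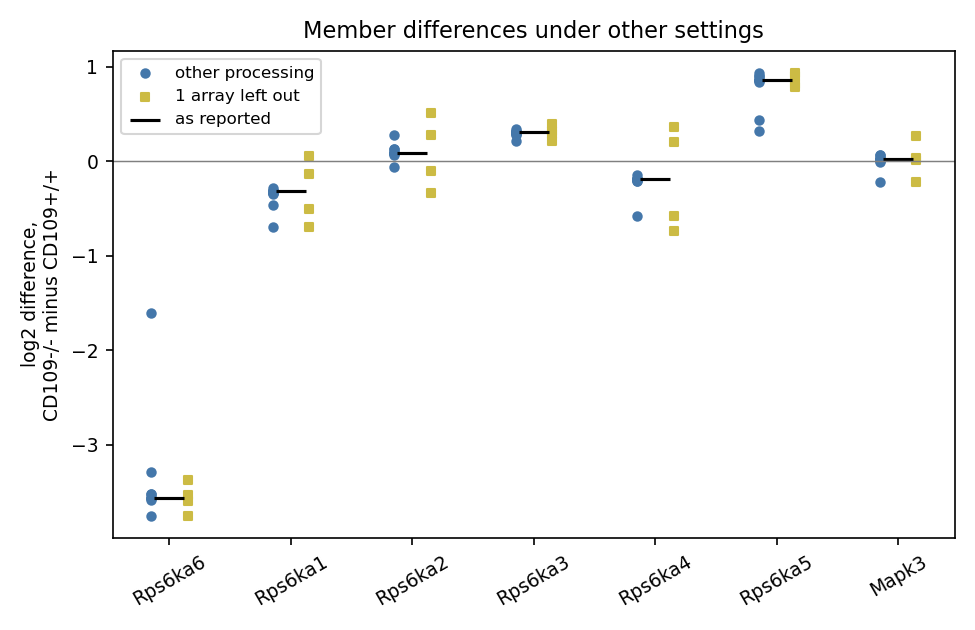
Log2 difference, CD109-/- minus CD109+/+ (vertical axis), of each member gene (horizontal axis) as reported (black line), under other processing (circles) and with 1 array left out (squares). Rps6ka6 stays between -3.75 and -1.61, below all values of the other members, whereas Rps6ka1, Rps6ka2, Rps6ka4 and Mapk3 fall on both sides of 0.

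The rest of the pathway was then read through 7 lists of genes, 107 genes beside the members, all listed genes being measured. The sign of single genes varied, and 0 of 107 passed limma's Benjamini-Hochberg threshold of 0.05, as did 0 of all 16443 genes (0% called by gene and by probe). At an unadjusted p under 0.05 there was 1 of 107, with higher values, against 7.41% of all genes in either direction (822 higher and 397 lower). The differences ran from -0.78 to 1.37 with a median of -0.0042, with each gene read on its brightest probe.

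Upstream, the RAS-RAF-MEK-ERK cascade list had a median difference of 0.02 over 24 measured genes, 15 with higher and 9 with lower values, and the median was -0.0022 with the authors' processed values and -0.068 between females alone. Egfr, the receptor for EGF at the head of the cascade, had log2 signals of -2.64 and -2.31 on the CD109+/+ arrays and -0.30 and -1.92 on the CD109-/- arrays. Its difference was 1.37 ± 0.58 (limma adjusted p = 0.7), and 2 further Egfr probes gave 0.70 and 1.5. The Egfr genotypes did not overlap, and the male CD109-/- array was the highest. The p38 list upstream of MSK had a median of 0.045 over 9 genes, with Mapk11 (p38 beta) at 0.47 ± 0.37, Map3k7 (TAK1) at 0.25 ± 0.22 and Map3k5 (ASK1) at 0.23 ± 0.24. Each of these p38 values was within 2 standard errors of 0, and 2 further Map3k7 probes had the opposite sign (-0.20 and -0.16).

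Genes that restrain ERK gave no call. In the list of ERK scaffolds, inhibitors and phosphatases 0 of 15 genes had an unadjusted p under 0.05. Values were lower in CD109-/- tumours for 12 of the 15, beside 49.7% of all genes, and the median was -0.27, beside 0.0029 over all genes. The genotypes did not overlap in 6 of the 15, a share near the 38.6% of all genes in either direction, and all 6 were lower, beside 18.3% of all genes. Dusp4, a nuclear ERK phosphatase, had log2 signals of 0.50 and 0.61 on the CD109+/+ arrays and 0.17 and -0.23 on the CD109-/- arrays. That gave -0.58 ± 0.25 (limma adjusted p = 0.7) for Dusp4. Dusp6, the cytoplasmic ERK phosphatase induced by ERK signalling, was at 4.87 and 5.09 against 4.72 and 4.64, or -0.30 ± 0.22, and the X-linked Dusp9 at -0.78 ± 0.43, lowest on the male array. The list's median lay between -0.30 and -0.22 under the 14 alternatives, of which a mean-variance trend and the replicate block cannot change it.

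Kinases parallel to RSK were read next. Among 5 other kinases activated by ERK or p38 the median was 0.32, and 4 of the 5 had higher values without overlap, beside 20.3% of all genes that did not overlap and were higher. Mknk1 and Mknk2, which phosphorylate the cap-binding factor eIF4E, stood at 0.43 ± 0.28 and 0.34 ± 0.22, with a further probe at 0.11 for Mknk1 and at -0.36, the opposite sign, for Mknk2. Mapkapk3, a p38 target, stood at 0.32 ± 0.24 and its further probe at 0.32. The list of S6 kinase relatives and other AGC kinases, to which the RSK amino-terminal domain belongs, had a median of -0.046 over 13 genes, and this median turned to 0.048 when CD109+/+ replicate 1 was left out and to 0.15 when CD109-/- replicate 2 was. In it the glucocorticoid-induced kinase gene Sgk1 stood at 0.72 ± 0.35, Rps6kl1 at -0.53 ± 0.29 and Sgk3 at -0.28 ± 0.25 (further probes -0.21 and 0.40). For these lists 0 genes had an unadjusted p under 0.05.

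Downstream, genes for RSK and MSK substrates had a median of 0.036 over 27 genes, 17 with higher and 10 with lower values. Cebpb, a transcription factor phosphorylated by RSK, was the 1 gene with an unadjusted p under 0.05 (limma adjusted p = 0.544). It had log2 signals of 3.21 and 3.08 on the CD109+/+ arrays and 3.88 and 4.09 on the CD109-/- arrays, a difference of 0.84 ± 0.22. Srf, the serum response factor, stood at 0.43 ± 0.24, and Eef2k, the kinase that slows translation elongation, at -0.69 ± 0.43 with 3 further probes between -1.24 and -0.33. These are RNA levels of substrates, and their phosphorylation was not measured.

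The immediate early genes that CREB and SRF induce had a median of -0.14 over 18 genes, 12 with lower values, and the median turned to 0.015 when CD109+/+ replicate 1 was left out and to 0.062 when CD109-/- replicate 2 was. Egr1, a zinc finger gene induced through SRF and its ETS partners, had log2 signals of 2.25 and 2.30 on the CD109+/+ arrays and 1.46 and 1.92 on the CD109-/- arrays, or -0.59 ± 0.26 (limma adjusted p = 0.706). Ier2 stood at -0.46 ± 0.28 and Egr3 at 0.86 ± 0.45. Egr1 and Ier2 were lower without overlap, Egr3 was higher without overlap, and none had an unadjusted p under 0.05.

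**Figure D4:**
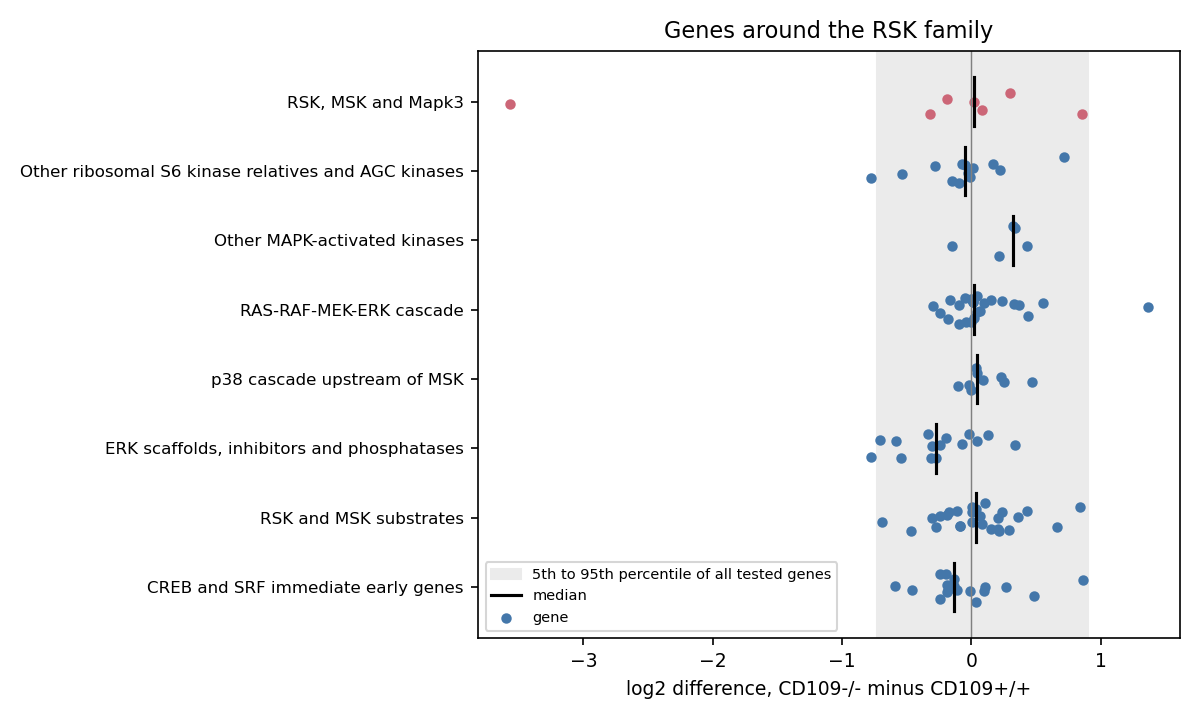
Log2 difference, CD109-/- minus CD109+/+ (horizontal axis), of each gene in the RSK, MSK and Mapk3 group and in 7 pathway lists (vertical axis), with the median of each list as a black line and points shifted vertically for visibility. Apart from Rps6ka6 at -3.57, the points lie between -0.78 and 1.37.

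The genes whose profile lay nearest to that of Rps6ka6 were found by the root mean square distance between centred log2 profiles over the 4 arrays. Nrip2, a nuclear receptor interacting protein gene, was nearest at a distance of 0.117, with log2 signals of -2.96 and -3.01 on the CD109+/+ arrays and dim values, not above background, in CD109-/- tumours. Next came Muc2, the gel-forming intestinal mucin gene, at 0.321, with -1.01 and -0.89 against -3.92 and -3.94, all well above background. Aire, which drives tissue-restricted genes in the thymus, followed at 0.361, the lipid droplet gene Fitm1 at 0.366 and Cd109 itself at 0.411. Nrip2, Aire, Fitm1 and Cd109 were not well above background on either CD109-/- array and passed the filter through the CD109+/+ arrays alone. Rps6ka6 itself was not well above background on CD109-/- replicate 2. The distances, that of Nrip2 included, therefore rest partly on values at the floor. The 6 genes, Rps6ka6 included, lie on 6 different chromosomes. Distance over 4 arrays is a description and carries no test.

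**Figure D5:**
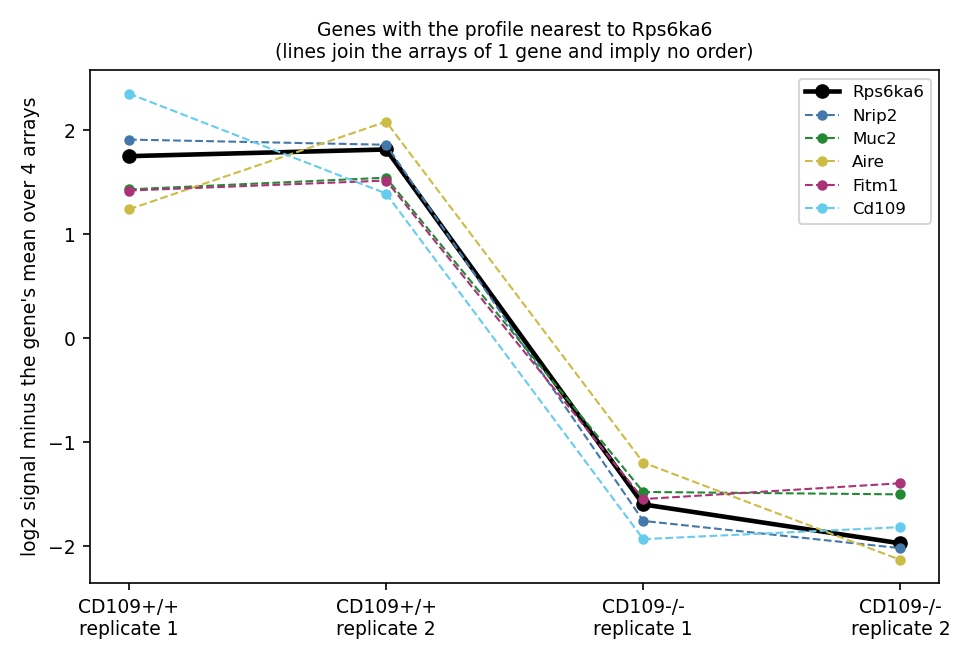
Log2 signal minus each gene's mean over the 4 arrays (vertical axis) on each array (horizontal axis) for Rps6ka6 and the 5 genes with the nearest profile. All 6 genes are above their mean on both CD109+/+ arrays and below it on both CD109-/- arrays. Nrip2 at a distance of 0.117 follows Rps6ka6 most closely, with CD109-/- values not well above background.

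Markers of cell types also differed between the genotypes on the same arrays. The counts below stand beside 49.7% of all genes with lower values. Gastric and intestinal markers had lower values in 4 of 5 measured genes. Among these were Muc2, already named above for its profile, and Hnf4a, which overlapped. Tff1 was higher, at 0.32 ± 1.75, with 5.60 and 5.92 on the replicate 1 arrays and 1.90 and 2.21 on the replicate 2 arrays. The summed signal of these markers, relative to the 75th percentile, was 86.1 to 139 in CD109+/+ and 39.4 to 83.6 in CD109-/- tumours. Gkn1 and Cdx2 did not pass the filter. Hepatocyte-like markers had lower mean values in 5 of 5, with sums of 5.82 to 41.6 against 0.39 to 2.41, and Fgb did not pass the filter. Only Alb and Otc among them separated the genotypes, while Ttr, Apoa1 and Serpina1a overlapped and were high on the array of CD109+/+ replicate 2 alone. Club cell markers had higher values in 4 of 5 (89.9 to 147 against 241 to 311). Macrophage markers did so in 9 of 9 (38.8 to 50.2 against 70.7 to 84.6). T and NK cell markers were higher in 6 of 7 (3.1 to 3.41 against 3.76 to 4.63), and Cd8a and Trac were not tested. Cd4, the brightest of these 7 and the largest part of their sum, was the 1 lower gene at -0.12 ± 0.21. The sums weigh bright probes most, so they do not show how most genes of a list moved. Fibroblast and smooth muscle markers had higher values in 9 of 10 (43.2 to 49.4 against 59.9 to 72.7). Endothelial markers were higher in 7 of 7 and ciliated cell markers in 6 of 6, although the summed signals of both overlapped. Every measured ciliated cell marker overlapped between the genotypes. Apart from Tppp3, each was higher on replicate 2 than on replicate 1 of the same genotype. Foxj1, for example, had -5.23 and -2.35 on the CD109+/+ arrays and -2.93 and -0.75 on the CD109-/- arrays. The ciliated count is therefore not read as a genotype difference. The ciliated cell marker Ccdc39 was not tested.

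At an unadjusted p under 0.05 in limma stood 7.41% of all 16443 genes in either direction, 822 higher and 397 lower. Marker genes with higher values at that p were 5 of 7 for T and NK cells, 5 of 9 for macrophages and 3 of 5 for club cells. They were 3 of 10 for fibroblasts and smooth muscle and 2 of 6 for B and plasma cells, with 1 gene each for alveolar type 1 cells, neutrophils and endothelium. Lower values at that p were found for 2 of 5 gastric and intestinal and 2 of 5 hepatocyte-like markers, and no gene reached it for alveolar type 2, ciliated, neuroendocrine or kidney tubule markers. The part of these cell types in the Rps6ka6 result was not tested.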

How the data were processed

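Total RNA of 4 lung tumour samples was labelled with Cy3 from 100 ng, per the labels' protocols, and grouped by the genotype in the labels. The authors' scanner files hold linear intensity values made with Agilent Feature Extraction 12.1.0.3, background-subtracted and detrended per the file headers and not scaled between arrays. A table deposited by the authors holds the same intensity values times 1 constant per array (1.19, 1.21, 1.04 and 1.08 in the order CD109+/+ 1, CD109+/+ 2, CD109-/- 1, CD109-/- 2; medians 58.8, 76.1, 59.5 and 69.2, not centred, scaling rule unknown here) and was an alternative only. The files' 0 or 1 marks, deposited by the authors as another kind of value, gave saturation (0 spots), outliers and signal well above background.

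Outlier spots were left out and 7 probes with none left on an array were not tested. Values are log2 of the processed signal minus the array's 75th percentile. Probes were named through RefSeq accessions (34566 probes of 23787 genes), and where a gene had several tested probes the brightest on average stood for it. The genotype difference was fitted in R 4.3.3 with limma 3.58.1 (lmFit, eBayes; two-sided, no covariates) by probe (35769, used for member probes) and by gene (16443, used for all other genes), with Benjamini-Hochberg adjustment and a threshold of 0.05. The smallest p of an exact permutation test (two-sided) is 0.333 with 2 samples a group. All arrays lay on 1 slide in 1 scan session, so no batch block was run. The procedure was tested on simulated data with large planted differences and little spread between replicates. That is a check of the code and does not show its power on these arrays.

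The members and lists were chosen with earlier results of these data known. Named genes were the members, the 3 other genes with the largest absolute moderated t in each list, the 5 nearest profiles without predicted genes, and checks of the labels. Some genes named by this rule are not reported here. The array header names build mm9, so coordinates are given only for the RefSeq promoters of GRCm38.p6, which held 5 of the 7 members.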

Additional observations from a re-analysis of the deposited data

How the results depend on the processing

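The count of 0 genes past the adjusted threshold held under all 14 alternatives, as did 0 of the 107 pathway genes. By probe the count was 0 to 2 when single arrays were left out, with 2 without CD109-/- replicate 2, and 0 otherwise. The Rps6ka6 difference of -3.57 kept its direction in the 13 alternatives that could give it. It moved beyond the spread between replicates to -1.61 with normexp, whose offset shrinks dim differences, and to -3.29 with the mean of its probes. A mean-variance trend and the replicate block cannot change a difference of means, and it was -3.57 with both. It was also -3.57 without the filter on dim probes, where the same probe stood for the gene. Sex as a covariate gives the same difference as leaving out CD109-/- replicate 1, -3.75. The 13 alternatives are therefore not 13 separate checks. The Rps6ka6 difference could not be computed when signal on all 4 arrays was asked for. The median of the 6 other members was 0.0026 to 0.23 in the 14 alternatives.

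Sign changes were as follows. Rps6ka2 turned to -0.057 with normexp, Mapk3 to -0.012 with quantile normalization and to -0.22 with sex as a covariate, and the cascade median to -0.0022 with the authors' values and -0.068 with sex as a covariate. When single arrays were left out, values ranged from -0.70 to 0.057 for Rps6ka1, -0.34 to 0.51 for Rps6ka2, -0.74 to 0.36 for Rps6ka4, -0.22 to 0.26 for Mapk3, -0.054 to 0.15 for the median of S6 kinase relatives, -0.068 to 0.15 for the cascade and -0.27 to 0.062 for immediate early genes. The cause was not tested, except that sex as a covariate leaves the comparison between females.

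The replicate numbers pair no samples by the labels. Deviations of arrays numbered alike correlated at 0.363 over 16443 genes, a hint from the data only. With the replicate block 1898 genes had an unadjusted p under 0.05, against 1219 without it, 553 without CD109+/+ replicate 1 and 1929 without CD109-/- replicate 2. Among the pathway genes that count was 1 as reported and at most 5 (sex as a covariate, without CD109-/- replicate 1 or without CD109-/- replicate 2). It was 4 with the replicate block, 3 with normexp, and 2 with scaling to the median, a mean-variance trend or without CD109+/+ replicate 2. Normexp was run on median spot signals, the column at hand. Dim signal limits Rps6ka6 in CD109-/- tumours, where 1 of 4 readings was well above background.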

Other observations

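Several genes of this pathway varied more between replicates than between genotypes, chosen here after their values were seen. Rps6ka4 stood at 3.05 and 2.69 on the replicate 1 arrays of CD109+/+ and CD109-/- tumours and at 1.94 and 1.91 on the replicate 2 arrays. Fosl1, which encodes the AP-1 protein FRA1, an ERK-induced factor, showed the same split with -1.32 and -1.19 against -3.18 and -3.58. Ier3, an immediate early gene, had 2.78 and 2.42 against 1.02 and 1.36. The labels give no meaning to the replicate numbers. Sgk2, an AGC kinase gene, had -0.88 on CD109-/- replicate 1 and -4.52 on CD109-/- replicate 2, with -1.29 and -2.56 in CD109+/+ tumours. Il17rd, a membrane inhibitor of ERK signalling, had -2.16 on CD109-/- replicate 1 and -0.18 to -0.58 on the other 3 arrays.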
